A study of Mus musculus with 12 samples.

Results

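Open chromatin was examined around 7 genes of the Bcl2 family in progenitors from the bone marrow of mice with lowered PU.1. The genes were Bcl2, Bcl2l1, Mcl1, Bcl2l11, Bax, Bid and Bcl2a1b. Every open region that overlapped the body of one of them, extended by 20 kb on each side, was taken, which gave 103 of the 121336 regions measured. Of these, 34 belonged to Bcl2, 16 to Bcl2l1, 15 to Bcl2l11, 11 each to Mcl1 and Bid, 9 to Bax and 7 to Bcl2a1b. Around these genes the choice of regions rested on position alone, whereas the genes were chosen with earlier results of these data known. All 103 regions passed the filter on low counts, which removed none of the 121336. By class, 9 lay at a start site of the gene itself (promoter regions, within 500 bp of a start site), 7 at a start site of another gene inside the window, 48 inside the gene body and 39 in the flanks.

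The assay was ATAC-seq, in which a transposase cuts accessible DNA and the number of cuts in a region is its accessibility. Libraries came from 4 groups of 3 mice each. WT mice were C57BL/6 littermates of UREd/d mice (called URE), which lack on both alleles the upstream regulatory element of Spi1, an enhancer of the gene for the transcription factor PU.1. All mice were young adults, and the URE mice were preleukemic. From each genotype, LSK (Lin- Sca-1+ c-Kit+, a sort that holds stem cells and early progenitors) and GMP (granulocyte-monocyte progenitors, Lin- Sca-1- c-Kit+ Cd16/32+) were sorted. The groups are called WT-LSK, WT-GMP, URE-LSK and URE-GMP. The deletion is in the germline and lowers PU.1 without removing it, and both sorts are mixtures of cells. In such bulk libraries, fewer cells with a region open and less opening per cell cannot be told apart. Values are CPM (counts in a region scaled to library size), given as mean ± SD with n = 3. Fold changes are log2 values ± SE from 1 edgeR model over all regions, and a region is called when its adjusted p is under 0.05 and its fold change is over 2.

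Bcl2 family proteins set whether the mitochondrial outer membrane stays closed. Bcl2, Bcl2l1 (Bcl-xL), Mcl1 and Bcl2a1b (a mouse A1 gene) keep cells alive by binding their pro-death relatives, Bax is a pore former, and the BH3-only proteins Bcl2l11 (Bim) and Bid block the protective members and activate the pore formers. Myeloid progenitors depend on Mcl1, and Bim removes blood cells that lose cytokine signals. PU.1 is an ETS factor that opens chromatin at myeloid and lymphoid enhancers and binds purine-rich sites with a GGAA core.

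The 300 bases at the centre of 7 regions away from promoters, picked from the named regions, are shown here. They cover a Bcl2 region that was lower in URE in both cell types, Mcl1 and Bid regions that were lower in LSK, 2 Bcl2l11 regions that were higher in URE, 1 Bcl2l11 region that went opposite ways in LSK and GMP, and the Bcl2a1b region with the lowest fold change. Sequence is the plus strand of GRCm38. Capitals mark matches, on either strand, to a PU.1 motif (GAGGAAGT), a RUNX motif (AACCACA), a CEBP motif (TTGCNNAA) or a GATA motif (AGATAA). A motif for other ETS factors (CCGGAAGT) was searched too and had no match in these windows, and the Bcl2 window had no match to any motif.
Bcl2 intron, 86.8 kb, chr1:106627284-106627583: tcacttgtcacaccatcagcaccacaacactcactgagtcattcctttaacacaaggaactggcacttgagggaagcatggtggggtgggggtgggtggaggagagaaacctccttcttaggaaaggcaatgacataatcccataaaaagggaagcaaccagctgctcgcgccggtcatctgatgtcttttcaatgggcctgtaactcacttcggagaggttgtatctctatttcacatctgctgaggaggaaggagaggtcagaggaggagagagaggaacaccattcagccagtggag
Mcl1 upstream, 6.3 kb, chr3:95652378-95652677: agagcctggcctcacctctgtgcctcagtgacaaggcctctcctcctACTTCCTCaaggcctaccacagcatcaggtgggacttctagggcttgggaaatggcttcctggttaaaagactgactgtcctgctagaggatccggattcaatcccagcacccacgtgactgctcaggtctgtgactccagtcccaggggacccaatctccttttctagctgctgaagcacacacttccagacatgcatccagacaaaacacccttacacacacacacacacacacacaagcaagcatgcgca
Bid intron, 14.8 kb, chr6:120901948-120902247: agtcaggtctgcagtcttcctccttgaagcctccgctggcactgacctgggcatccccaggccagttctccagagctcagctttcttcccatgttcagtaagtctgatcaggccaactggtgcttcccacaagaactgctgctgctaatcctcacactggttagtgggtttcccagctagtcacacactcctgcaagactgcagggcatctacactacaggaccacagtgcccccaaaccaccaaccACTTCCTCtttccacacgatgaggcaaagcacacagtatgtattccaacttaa
Bcl2l11 downstream, 44.8 kb, chr2:128170664-128170963: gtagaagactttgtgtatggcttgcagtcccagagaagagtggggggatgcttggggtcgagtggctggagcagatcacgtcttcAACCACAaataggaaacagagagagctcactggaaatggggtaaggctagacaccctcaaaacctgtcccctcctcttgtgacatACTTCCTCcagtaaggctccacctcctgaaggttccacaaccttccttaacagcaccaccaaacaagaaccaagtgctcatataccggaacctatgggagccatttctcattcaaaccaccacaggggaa
Bcl2l11 intron, 11.1 kb, chr2:128136974-128137273: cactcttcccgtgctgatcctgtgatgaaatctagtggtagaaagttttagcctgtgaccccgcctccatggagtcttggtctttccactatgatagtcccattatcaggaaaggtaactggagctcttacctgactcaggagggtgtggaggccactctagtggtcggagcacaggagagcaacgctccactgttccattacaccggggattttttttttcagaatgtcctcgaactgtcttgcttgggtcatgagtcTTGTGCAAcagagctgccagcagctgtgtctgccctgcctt
Bcl2l11 upstream, 14.2 kb, chr2:128111654-128111953: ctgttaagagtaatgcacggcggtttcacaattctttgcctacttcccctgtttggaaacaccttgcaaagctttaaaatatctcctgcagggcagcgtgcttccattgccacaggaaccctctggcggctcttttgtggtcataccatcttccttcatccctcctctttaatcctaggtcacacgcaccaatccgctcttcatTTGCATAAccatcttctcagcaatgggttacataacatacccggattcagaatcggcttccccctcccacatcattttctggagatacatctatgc
Bcl2a1b upstream, 3.5 kb, chr9:89195526-89195825: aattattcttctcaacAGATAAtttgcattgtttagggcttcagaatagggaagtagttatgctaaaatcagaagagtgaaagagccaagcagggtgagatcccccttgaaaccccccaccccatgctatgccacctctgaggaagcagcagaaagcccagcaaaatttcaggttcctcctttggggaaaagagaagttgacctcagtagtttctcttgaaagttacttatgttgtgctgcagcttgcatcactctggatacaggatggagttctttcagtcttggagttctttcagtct

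Of the Bcl2 and Mcl1 windows, only the Mcl1 window held the PU.1 motif, as did the Bid window and the downstream Bcl2l11 window, where a RUNX match stood beside it. The other 2 Bcl2l11 windows each held a CEBP match and the Bcl2a1b window a GATA match. A match describes the letters in a window and says nothing of binding. The windows shown were picked and do not give the share of windows with a match. Among named regions not shown, those of Mcl1 7.8 kb upstream, Bid 38.1 kb and Bcl2 69.5 kb, for example, held none.

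Totals ran from 23072701 to 62204826 counts per library, so that 3 counts stood for 0.052 to 0.126 CPM. Replicates correlated at 0.940 to 0.980 across regions and libraries of different groups at 0.470 to 0.827. At the deleted element, the region 13.7 kb upstream of the Spi1 start codon held 39.4 CPM in WT-LSK and 43.8 in WT-GMP, and at most 6 counts in any URE library. Of the markers of the sorts, 6 of 6 measured GMP marker promoters had a higher mean in WT-GMP than WT-LSK, and their summed level was 28.8 to 35.2 CPM in WT-LSK, 25.0 to 50.9 in URE-LSK, 202 to 259 in WT-GMP and 333 to 347 in URE-GMP. The 6 measured LSK marker promoters summed to 285 to 295 CPM in WT-LSK, 302 to 341 in URE-LSK, 207 to 238 in WT-GMP and 204 to 221 in URE-GMP, and none of 5 erythroid promoters had a region. The summed level of 5 monocyte promoters was 60.9 to 81.5 CPM in WT-GMP and 44.2 to 58.3 in URE-GMP, that of 5 late neutrophil promoters 36.6 to 54.3 and 75.0 to 86.6 CPM, and that of 2 basophil or mast cell promoters 9.90 to 13.1 and 24.8 to 34.5 CPM. In LSK the late neutrophil sum was 12.9 to 15.5 CPM in WT and 7.02 to 8.16 in URE, with Mmp8 and S100a8 called lower (-2.29 and -1.47) and Camp called higher (1.53). The basophil or mast cell sum in LSK was 7.38 to 11.4 and 23.8 to 30.6 CPM, and that of 3 megakaryocyte promoters 56.2 to 77.2 and 82.2 to 87.3, of which none was called. The part of such shifts in the results on the Bcl2 family was not tested. Chromosome Y counts showed that replicates 1 and 3 of URE and replicate 1 of WT held Y signal (653 to 1684 counts, against 0 to 9), and all 7 genes are autosomal.

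Around the Bcl2 family, many regions and few promoters differed between the genotypes. In LSK, 35 of the 103 regions were called, 11 higher and 24 lower in URE, a share of 34.0% against 37.5% of all regions (13.6% higher and 23.9% lower). In GMP, 28 were called, 12 higher and 16 lower, a share of 27.2% against 39.7% of all regions (15.6% higher and 24.1% lower). So the family's regions were not called more often than regions in general. Their median log2 fold change was 0.19 in LSK, beside 0.14 over all regions, and 0.06 in GMP, beside 0.06. The balance of directions rested on the scaling: with loess offsets, which remove a trend with abundance, LSK had 17 higher and 20 lower and GMP 18 higher and 10 lower, and with GC content offsets the counts were 15 and 22 in LSK and 14 and 14 in GMP. By class, 1 of the 9 own promoter regions was called in each cell type, whereas of the 87 regions away from any promoter 32 were called in LSK and 26 in GMP. The same divide held over the whole genome, where 11.5% of promoter regions and 42.4% of regions at no start site were called in LSK, and 13.0% and 44.7% in GMP. Calls also lay mostly in weak regions, here as over the whole genome. Of 66 regions with a mean under 5 CPM, 27 were called in LSK and 26 in GMP, beside 46.4% and 50.2% of all regions of that strength, and of the other 37, 8 and 2, beside 19.2% and 17.9%.

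**Figure D1:**
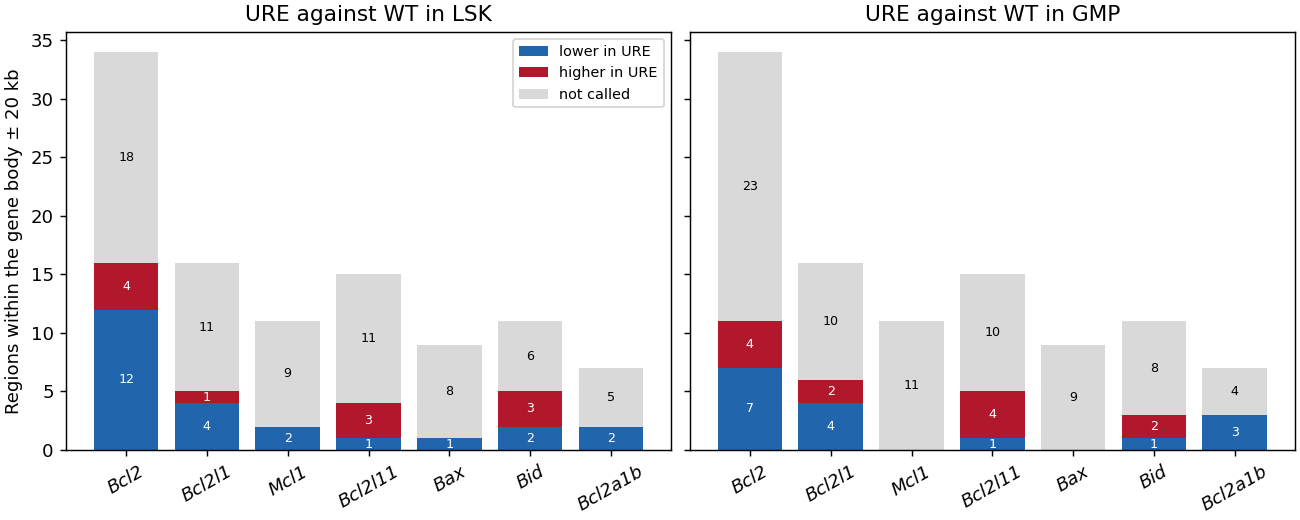
Stacked bars give the number of open regions of each gene (y axis) that were called lower in URE (blue), called higher (red) or not called (grey), in LSK on the left and GMP on the right. Bcl2 held 12 of the 24 regions called lower in LSK, and no Mcl1 or Bax region was called in GMP, where 39.7% of all regions were.

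The promoters of 6 of the 7 genes stayed within a 2-fold change. At the Bcl2 promoter the WT-LSK libraries held 52.3, 55.1 and 52.0 CPM and the URE-LSK libraries 68.7, 68.8 and 65.8, and the WT-GMP libraries 61.2, 57.0 and 59.6 CPM beside 64.3, 67.2 and 65.1 in URE-GMP. URE lay above WT with no overlap in both cell types, by 0.35 ± 0.06 in LSK (adjusted p = 0.000208) against 0.15 ± 0.06 in GMP (adjusted p = 0.0584). The Bcl2l11 promoter was at 56.7 ± 2.37 CPM in WT-LSK and 77.5 ± 4.82 in URE-LSK (log2 0.45 ± 0.08, adjusted p = 0.000119), and at 61.4 ± 5.63 and 75.7 ± 2.53 CPM in GMP (0.30 ± 0.08, adjusted p = 0.00314). For Mcl1 the promoter values were 69.8 ± 2.80 and 85.2 ± 6.70 CPM in LSK (0.29 ± 0.07, adjusted p = 0.0038) and 76.7 ± 5.02 and 98.9 ± 4.19 in GMP (0.37 ± 0.07, adjusted p = 0.000479). The promoters of Bcl2l1, Bax and Bid differed by 0.20, 0.35 and 0.19 in LSK and by 0.05, 0.17 and -0.01 in GMP. None of these was called. For some of them the direction depended on the scaling. Under loess offsets the LSK values were -0.09 for Bcl2l1, -0.01 for Mcl1 and -0.05 for Bid, and the GMP value of Bcl2 was -0.08. Over all settings tried, the values stayed above 0 for Bcl2 in LSK (0.09 to 0.40), Mcl1 in GMP (0.12 to 0.43) and Bax in LSK (0.12 to 0.41). The Bcl2l11 promoter kept its sign in both cell types, but its value went down to 0.18 in LSK and 0.07 in GMP. The adjusted p of these edgeR and DESeq2 fits reached 0.053 in LSK and 0.474 in GMP. Over all regions the median moved from 0.14 to -0.04 in LSK and from 0.06 to -0.08 in GMP when TMM was computed on promoter regions.

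**Figure D2:**
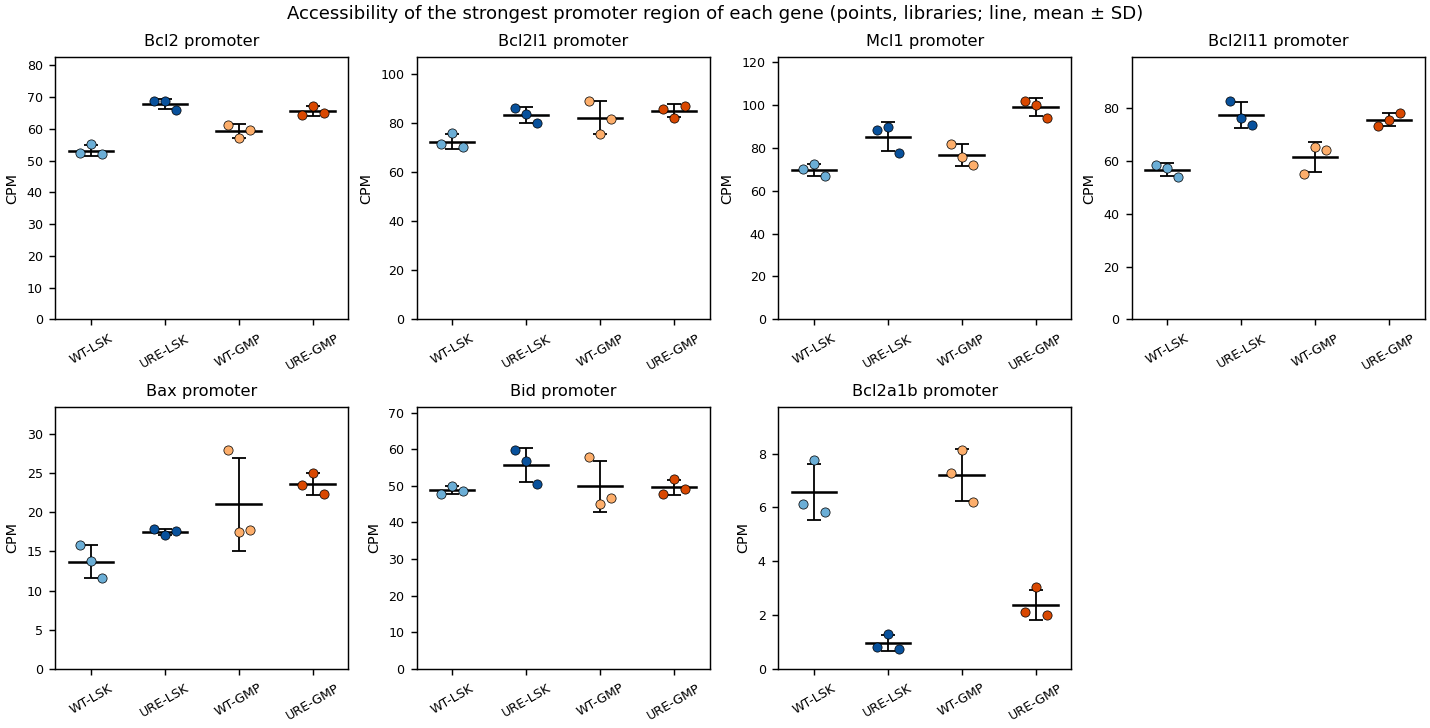
Each panel plots CPM (y axis, from 0) of the strongest promoter region of a gene in the 12 libraries, with the mean ± SD of each group. The URE and WT libraries lie close together in 6 panels, and the Bcl2a1b promoter falls in LSK from 6.57 to 0.955 CPM and in GMP from 7.20 to 2.39 CPM.

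Bcl2a1b was the exception among the promoters. Its promoter region (chromosome 9, 89198975 to 89199388, over the first coding exon and also at a start site of Gm29094) held 6.14, 7.75 and 5.83 CPM in the WT-LSK libraries and 0.833, 1.28 and 0.748 in URE-LSK. In GMP it held 7.28, 8.12 and 6.20 CPM in WT and 2.13, 3.04 and 2.01 in URE. The URE libraries lay below the WT libraries in both cell types, with log2 fold changes of -2.79 ± 0.25 in LSK (adjusted p = 1.45e-07) against -1.58 ± 0.23 in GMP (adjusted p = 2.07e-05). This region held a PU.1 motif. The loss was 1.21 ± 0.33 smaller in GMP than in LSK (interaction, adjusted p = 0.02), a call that was lost without URE-GMP replicate 2 (0.99, adjusted p = 0.058), URE-LSK replicate 1 (1.12, adjusted p = 0.0596) or URE-LSK replicate 3 (1.05, adjusted p = 0.051). Upstream by 3.5 kb, the region whose sequence is shown above went from 3.88, 6.24 and 5.01 CPM in WT-LSK to 0.0714, 0 and 0.128 in URE-LSK, where the counts were 0 to 6. In GMP it went from 7.15, 9.40 and 8.23 CPM to 0.753, 1.14 and 0.581. Its fold change in LSK, -6.07 ± 0.44 (adjusted p = 2.18e-08; -6.92 leaving out URE-LSK replicate 3), was the lowest of the 103 regions, and that in GMP was -3.30 ± 0.31 (adjusted p = 4.14e-07). The difference between the cell types was 2.77 ± 0.59 (adjusted p = 0.00467; 3.62 without that replicate). A region 1.5 kb upstream in GMP was at 4.44 ± 0.655 CPM in WT and 2.07 ± 0.0471 in URE (-1.10 ± 0.23, adjusted p = 0.000581), and fell under the fold threshold without WT-GMP replicate 2 (-0.98), under loess offsets (-0.98) and under GC content offsets (-0.82). In LSK its value was -0.70 ± 0.23 and not called. Farther downstream, inside Mthfs and Gm29094, the strongest region away from promoters was not called (4.54 ± 0.236 and 5.62 ± 0.0791 CPM in LSK, 3.85 ± 0.149 and 4.79 ± 0.533 in GMP). Bcl2a1b has near-identical copies, so reads could have been placed on the wrong copy and its values are uncertain in that respect.

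Bcl2 had called regions of both directions along its long intron, and its promoter was not called. Of its 34 regions, 4 were called higher and 12 lower in LSK (11.8% and 35.3%, beside 13.6% and 23.9% of all regions), and 4 higher and 7 lower in GMP (11.8% and 20.6%, beside 15.6% and 24.1%). Position is given here as distance from the gene start along transcription, on chromosome 1 from 106714274 down to 106538178. The region 86.8 kb into the gene (106627197 to 106627670) held 6.77, 7.22 and 7.26 CPM in WT-LSK, and 0.333, 1.26 and 0.534 in URE-LSK. In GMP it held 14.3, 18.0 and 18.1 CPM in WT, and 6.18, 7.58 and 3.90 in URE. Thus it was more open in GMP than in LSK in both genotypes and lower in URE in both cell types, with log2 fold changes of -3.36 ± 0.34 in LSK (adjusted p = 6.15e-07; -4.01 leaving out URE-LSK replicate 2) against -1.51 ± 0.29 in GMP (adjusted p = 0.00028). The effect in GMP was 1.84 ± 0.44 smaller (adjusted p = 0.00973; 2.50 leaving out URE-LSK replicate 2).

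Other intronic regions of Bcl2 moved the same way. At 132.3 kb (106581797 to 106582167) the values were 2.83, 3.26 and 2.31 CPM in WT-LSK and 0.309, 0.391 and 0.641 in URE-LSK. The GMP values were 6.82, 10.1 and 8.18 CPM in WT and 4.67, 6.28 and 3.71 in URE. The groups did not overlap in either cell type, but only LSK was called (-2.61 ± 0.30, adjusted p = 2.18e-06), the GMP value being -0.78 ± 0.24 (adjusted p = 0.0105; -1.0, past the threshold, without URE-GMP replicate 2). The difference of the effects was 1.83 ± 0.39 (adjusted p = 0.00435). At 69.5 kb (106644660 to 106644875), URE-LSK held 0.125 ± 0.0639 CPM against 1.87 ± 0.422 in WT-LSK (-3.90 ± 0.43, adjusted p = 1.26e-06), and URE-GMP 0.426 ± 0.189 against 1.81 ± 0.351 (-2.06 ± 0.35, adjusted p = 0.000114; -0.85 under loess offsets). The interaction there, 1.84 ± 0.57 (adjusted p = 0.036), was lost when any 1 of 7 libraries was left out (all except URE-GMP replicates 1 and 3, URE-LSK replicate 2, WT-GMP replicate 3 and WT-LSK replicate 3), with an adjusted p of 0.0526 to 0.123, and under loess offsets (adjusted p = 0.055). At 166.0 kb (106548118 to 106548447), inside the overlapping gene D630008O14Rik, the fall was from 2.75 ± 0.158 to 0.218 ± 0.0866 CPM in LSK (-3.65 ± 0.39, adjusted p = 9.9e-07) and from 1.46 ± 0.239 to 0.250 ± 0.146 in GMP (-2.50 ± 0.38, adjusted p = 3.74e-05).

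Gains in Bcl2 were fewer and outside the naming rule, which took the regions with the smallest p, and were picked here after their values were seen. The region 11.3 kb into the gene rose in LSK from 0.341 to 1.44 CPM (2.08) and in GMP from 1.69 to 3.90 (1.22). That at 66.7 kb also rose in both, in LSK from 0.984 to 3.13 CPM (1.66) and in GMP from 0.222 to 0.628 (1.53). Its strongest region away from promoters, 196.3 kb from the start and beyond the gene's end, was not called: 26.4 ± 3.66 and 36.1 ± 1.83 CPM in LSK, 37.5 ± 8.86 and 30.9 ± 2.18 in GMP. At 130.9 kb a region rose in GMP from 2.91 ± 0.577 to 6.51 ± 0.739 CPM (1.15). Its LSK values were 0.315, 0.367 and 0.362 CPM in WT and 0.452, 0.447 and 1.60 in URE, and its call there (1.29 ± 0.45, adjusted p = 0.0215) rested on URE-LSK replicate 3, without which the value was 0.37 (adjusted p = 0.354). That call was also lost without any 1 of the WT-LSK libraries (1.16 to 1.27, adjusted p = 0.059 to 0.0864), with TMM on promoter regions (1.13) and with the 2 groups fitted alone (1.23). Losses and gains therefore lay in the same intron.

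**Figure D3:**
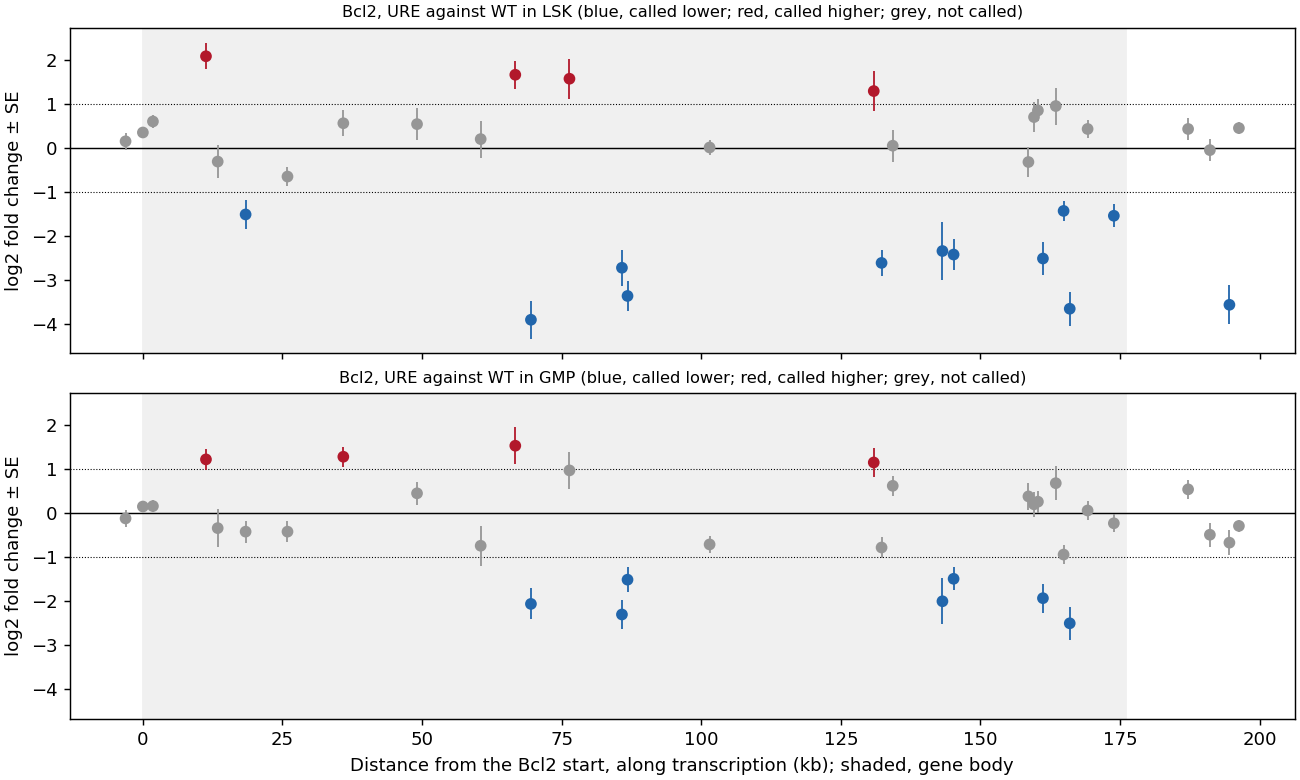
Log2 fold change ± SE of URE against WT (y axis) for the 34 regions of Bcl2 by distance from its start in kb (x axis), LSK above and GMP below, with the gene body shaded and dotted lines at a 2-fold change. Called losses and gains are interspersed along the intron, and the promoter lies close to 0, at 0.35 and 0.15.

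Bcl2l1 changed in its intron and downstream. Its strongest region away from promoters, 42.4 kb into the gene (chromosome 2, 152788612 to 152790067), held 40.5, 38.5 and 45.1 CPM in WT-LSK and 26.6, 28.0 and 28.3 in URE-LSK. The GMP values were 50.0, 42.9 and 57.7 CPM in WT and 32.4, 32.0 and 38.4 in URE. Every URE library lay below every WT library of its cell type, with log2 fold changes of -0.58 ± 0.11 in LSK (adjusted p = 0.000269) against -0.55 ± 0.11 in GMP (adjusted p = 0.000378), both short of a 2-fold change. At 46.9 kb in the same intron, URE-GMP held 4.24, 3.31 and 2.83 CPM against 0.753, 0.818 and 0.207 in WT-GMP (2.57 ± 0.39, adjusted p = 3.67e-05). In LSK that region was near the floor, with 1 to 3 counts in WT and 6 to 8 in URE. At 38.2 kb the GMP change was downward, from 1.06 ± 0.0289 to 0.126 ± 0.0415 CPM (-3.01 ± 0.50, adjusted p = 8.79e-05; -1.21 and not called under loess offsets), and the LSK value, -1.52 ± 0.68 (adjusted p = 0.0667), passed without WT-LSK replicate 1 (-2.07) and with TMM on promoter regions (-1.70). So the same intron held a region that rose and a region that fell in GMP.

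Beyond the gene's end, inside Cox4i2 and 68.2 kb from the Bcl2l1 start, a region fell from 2.30 ± 0.638 to 0.144 ± 0.00508 CPM in LSK (-3.96 ± 0.40, adjusted p = 4.86e-07) and from 1.34 ± 0.438 to 0.160 ± 0.0551 in GMP (-3.03 ± 0.39, adjusted p = 6.9e-06). The region over the 3′ end, at 51.0 kb, was at 3.74 ± 0.673 CPM in WT-GMP and 1.79 ± 0.296 in URE-GMP (-1.06 ± 0.19, adjusted p = 0.000197). That last call was at the threshold. It was lost under loess offsets (-0.97) and with RLE size factors or DESeq2 (-1.0 each, just short of it). It was also lost without URE-GMP replicate 2 (-0.94), WT-GMP replicate 1 (-1.0, just short of it) or WT-GMP replicate 3 (-0.99). In all, 1 Bcl2l1 region was higher and 4 lower in LSK, and 2 were higher and 4 lower in GMP, where DESeq2 called 5 in all. As shares these were 6.25% and 25.0% in LSK, beside 13.6% and 23.9% of all regions. In GMP they were 12.5% and 25.0%, beside 15.6% and 24.1%. Of the LSK calls, those at 15.3, 56.1 and 67.4 kb were lost under loess offsets (-0.39, -0.13 and -0.82). The gain at 59.8 kb was lost without URE-LSK replicate 3 (0.85), WT-LSK replicate 2 or WT-LSK replicate 3. Only the LSK loss at 68.2 kb remained called in every fit that tested it (-4.22 to -2.44). The GMP call at 13.8 kb was lost under loess (-0.99) or GC content offsets (-0.92), and without URE-GMP replicate 2 or WT-GMP replicate 3.

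Mcl1 had 2 called regions, both in LSK and both upstream on chromosome 3. That was 18.2% of its regions in LSK and 0% in GMP, beside 37.5% and 39.7% of all regions. The one at 7.8 kb (95650236 to 95651816) held 19.4, 18.4 and 18.1 CPM in WT-LSK and 3.35, 5.72 and 4.21 in URE-LSK, whereas WT-GMP (42.7, 28.3 and 22.6 CPM) and URE-GMP (31.4, 37.9 and 21.9) overlapped. The log2 fold change was -2.08 ± 0.24 in LSK (adjusted p = 2.37e-06) against -0.03 ± 0.22 in GMP (adjusted p = 0.911), and the difference of the 2 was 2.05 ± 0.33 (adjusted p = 0.000647). The one at 6.3 kb (95652210 to 95652845), with the PU.1 motif, held 10.4, 7.18 and 8.65 CPM in the WT-LSK libraries and 2.40, 3.77 and 2.71 in URE-LSK. In GMP it held 13.8, 11.7 and 9.80 CPM in WT and 7.92, 7.65 and 4.97 in URE. It was lower in URE, with -1.57 ± 0.23 in LSK (adjusted p = 2.54e-05) beside -0.77 ± 0.22 in GMP (adjusted p = 0.00623), the latter not called, and the effects did not pass the test of a difference (0.80 ± 0.32, adjusted p = 0.0968). The strongest region away from promoters, 15.4 kb downstream of the start, was at 41.4 ± 3.52 and 34.1 ± 1.29 CPM in LSK and 43.5 ± 2.53 and 28.9 ± 0.184 in GMP (-0.28 and -0.59, adjusted p = 0.00948 and 1.69e-05), without overlap and without a call. Of the 11 Mcl1 regions, 0 were called in GMP by edgeR and 0 by DESeq2, although 5 had an unadjusted p under 0.05 and those 5 an adjusted p under 0.05, with a change of less than 2-fold.

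Bax, the pore former, had the fewest calls, at 11.1% of its regions in LSK and 0% in GMP, beside 37.5% and 39.7% of all regions. Of its 9 regions, 1 was called in LSK and 0 in GMP by edgeR and by DESeq2, and the called one was a start site of the small RNA gene Gm22133, 9.4 kb downstream of the Bax start, at 14.2 CPM in WT-LSK and 4.81 in URE-LSK (-1.56). In GMP 4 of the 9 had an unadjusted p under 0.05 and 2 an adjusted p under 0.05. The Bax promoter held 15.8, 13.8 and 11.6 CPM in the WT-LSK libraries and 17.8, 17.1 and 17.6 in URE-LSK. In GMP it held 27.9, 17.5 and 17.7 CPM in WT and 23.5, 25.0 and 22.3 in URE. Its strongest region away from promoters, just past the gene's end, went without overlap from 28.3 ± 1.07 to 39.3 ± 0.846 CPM in LSK (0.47 ± 0.10, adjusted p = 0.000606) and from 25.2 ± 3.25 to 32.4 ± 2.60 in GMP (0.36 ± 0.10, adjusted p = 0.00428). Neither was called.

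Bcl2l11, which encodes Bim, had more regions called higher than lower. Of 15 regions, 3 were higher and 1 lower in LSK, where 13.6% and 23.9% of all regions were, and 4 were higher and 1 lower in GMP, where 15.6% and 24.1% of all regions were. Its intronic region at 11.1 kb (chromosome 2, 128136813 to 128137434) held 0.210, 0.326 and 0.241 CPM in WT-LSK and 1.33, 1.26 and 2.54 in URE-LSK. In GMP it held 19.2, 14.4 and 7.61 CPM in WT, and 34.3, 36.4 and 33.5 in URE. It was therefore nearly closed in LSK and open in GMP in both genotypes, and URE lay above WT at both stages, by 2.77 ± 0.43 in LSK (adjusted p = 4.45e-05) against 1.35 ± 0.27 in GMP (adjusted p = 0.000395). From LSK to GMP it rose by 5.75 ± 0.39 in WT (adjusted p = 6.37e-08), the highest such value of the 103 regions. The WT step shares the WT libraries with the genotype comparisons.

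Downstream of Bcl2l11, at 44.8 kb (128170650 to 128170976), URE-GMP stood apart with 9.92, 9.26 and 9.18 CPM against 1.72, 3.97 and 1.91 in WT-GMP, 1.18, 1.39 and 1.01 in WT-LSK and 1.74, 1.51 and 1.47 in URE-LSK. The change was 1.87 ± 0.26 in GMP (adjusted p = 1.41e-05) and 0.42 ± 0.29 in LSK (adjusted p = 0.222), with a difference of 1.45 ± 0.38 (adjusted p = 0.0168). This window held the PU.1 motif although the region was higher in URE. Upstream, at 14.2 kb (128111611 to 128111995) and inside Acoxl, the genotype effect changed sign. WT-LSK held 4.30, 3.06 and 3.50 CPM and URE-LSK 0.928, 1.14 and 2.52, while WT-GMP held 3.68, 3.21 and 2.44 and URE-GMP 9.92, 9.59 and 8.77. The groups did not overlap in either cell type. The log2 fold change was -1.23 ± 0.30 in LSK (adjusted p = 0.00219) against 1.61 ± 0.28 in GMP (adjusted p = 0.000136), and the difference of 2.84 ± 0.41 passed the test (adjusted p = 0.000302). The LSK value fell under the fold threshold without URE-LSK replicate 1 (-0.97) and with GC content offsets (-0.94).

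Elsewhere in Bcl2l11, a region at 22.7 kb rose in GMP from 0.220 ± 0.139 to 1.71 ± 0.0334 CPM (2.88 ± 0.48, adjusted p = 8.48e-05; 3.62 leaving out WT-GMP replicate 2) and was at 1 to 7 counts per library in LSK. The broad region at 1.5 kb, next to the promoter, held 62.5 ± 2.19 and 84.6 ± 10.3 CPM in LSK and 68.4 ± 2.47 and 82.9 ± 1.16 in GMP (0.44 and 0.28, not called). Near the 3′ end, 33.9 kb from the start, a region outside the naming rule held 4.57, 5.63 and 4.95 CPM in WT-LSK. In URE-LSK it held 17.3, 16.0 and 5.81 CPM (1.37 ± 0.33, adjusted p = 0.00208), so that replicate 3 lay close to WT. In GMP its means were 0.763 CPM in WT and 1.12 in URE.

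Bid, the BH3-only protein that links death receptors to mitochondria, had 11 regions. Of these, 3 were higher and 2 lower in LSK and 2 higher and 1 lower in GMP. As shares these were 27.3% and 18.2% in LSK, beside 13.6% and 23.9% of all regions. In GMP they were 18.2% and 9.09%, beside 15.6% and 24.1%. The region lower in both was a start site of Gm17812 inside the gene, 8.5 kb from the Bid start (-1.86 and -1.70). Its intronic region at 14.8 kb (chromosome 6, 120901831 to 120902363), with the PU.1 motif, held 14.9, 15.3 and 13.9 CPM in WT-LSK and 4.24, 3.77 and 5.15 in URE-LSK. In GMP the genotypes overlapped, with 17.4, 21.0 and 19.9 CPM in WT and 20.7, 20.7 and 18.6 in URE. The loss in LSK was -1.74 ± 0.14 (adjusted p = 4.49e-08) and the GMP value 0.04 ± 0.13 (adjusted p = 0.798). The difference was 1.78 ± 0.19 (adjusted p = 2.96e-05), and in URE the region was higher in GMP than in LSK (2.19 ± 0.14, adjusted p = 5.91e-09). Another intronic region, at 5.1 kb, rose from 3.21 ± 0.288 to 6.75 ± 1.64 CPM in LSK (1.09 ± 0.17, adjusted p = 4.86e-05) and was at 13.9 ± 0.316 and 23.2 ± 1.59 in GMP (0.74 ± 0.16, not called). The LSK call there was lost without URE-LSK replicate 3 (0.91) or WT-LSK replicate 3 (0.96), with library size scaling (0.97) and with TMM on promoter regions (0.91).

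Downstream of Bid, inside Bcl2l13 and 38.1 kb from the Bid start (120878545 to 120878866), a region was at or under 15 counts per library except in URE-LSK, with 7.95, 3.99 and 4.87 CPM there and 0.236, 0.0816 and 0.101 in WT-LSK. In GMP it held 0.0837, 0.0629 and 0.0461 in WT and 0.323, 0.173 and 0.339 in URE. It rose by 5.27 ± 0.41 in LSK (adjusted p = 4.09e-08), the highest value of the 103 regions. In GMP the WT libraries had 2 or 3 counts each, 7 in all, and the URE libraries 39 in all, a ratio of 4.41 after scaling (exact 95% interval 1.95 to 11.7, counting error only). The interaction (-3.17 ± 0.90, adjusted p = 0.0237) was lost without WT-GMP replicate 1 (adjusted p = 0.0695), WT-GMP replicate 2 (0.0832) or WT-LSK replicate 3 (0.0578) and under loess offsets (0.0749). At 22.2 kb in the intron, a weak region rose in LSK from 0.0937 ± 0.0234 to 0.333 ± 0.140 CPM (1.77 ± 0.48, adjusted p = 0.00467) and in GMP from 0.763 ± 0.237 to 2.59 ± 0.180 (1.79 ± 0.31, adjusted p = 0.000132).

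**Figure D4:**
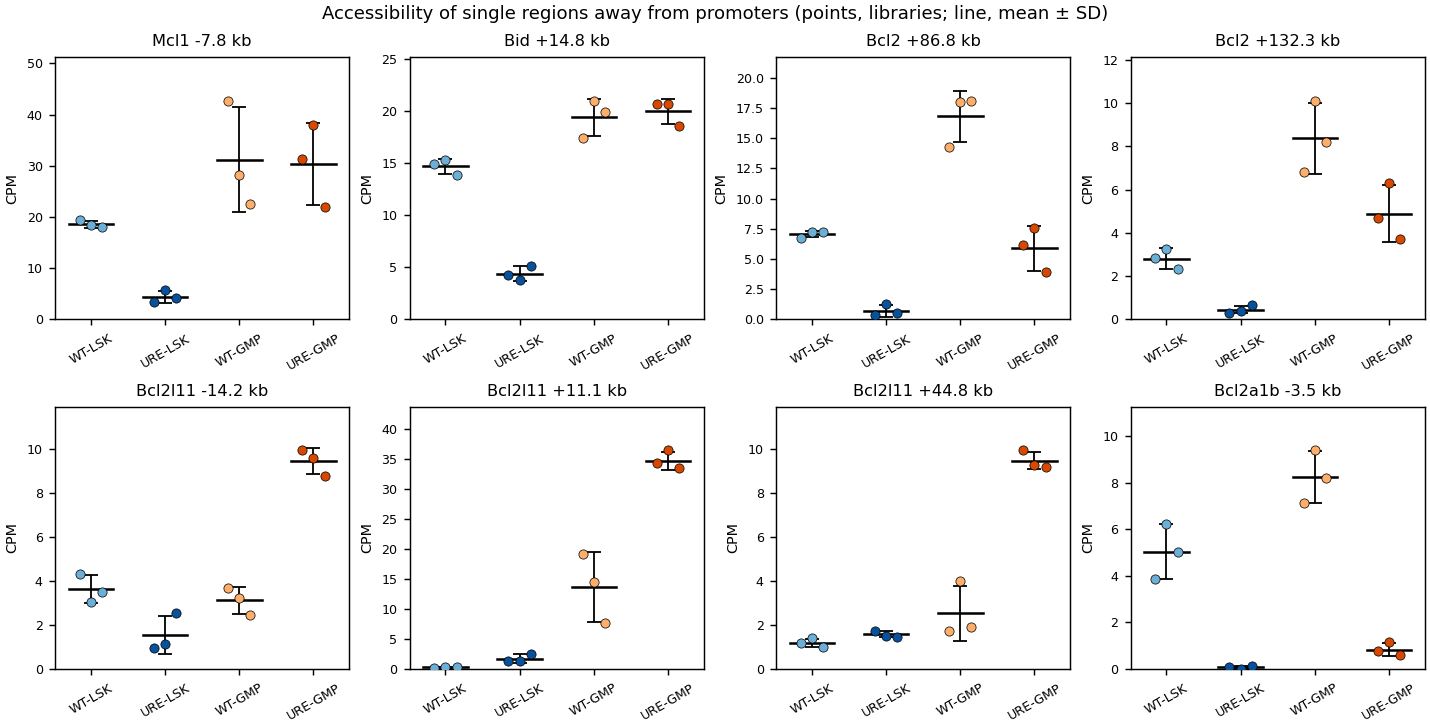
Each panel plots CPM (y axis, from 0) of a region away from promoters in the 12 libraries, with the mean ± SD of each group. Regions of Mcl1 and Bid drop in URE-LSK alone, Bcl2 and Bcl2a1b regions drop in both URE groups, and 3 Bcl2l11 regions are highest in URE-GMP.

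The genotype effects of LSK and GMP come from different libraries and were set side by side for each region. Of the 103 regions, 11 were called lower in both cell types and 7 higher in both, 12 were lower in LSK alone and 4 higher in LSK alone, and 5 were lower and 4 higher in GMP alone. As shares these were 10.7%, 6.80%, 11.7%, 3.88%, 4.85% and 3.88%, and over all regions they were 18.7%, 8.45%, 5.11%, 5.06%, 5.22% and 7.12% in the same order. The single region called in opposite directions was the Bcl2l11 region 14.2 kb upstream. A call in 1 cell type alone does not show a difference between them. By the test of the difference, 12 regions were called (11.7%, against 14.0% of all regions), 11 with a positive value and 1 with a negative one, where a positive value means that URE was less reduced or more raised in GMP than in LSK. Of these 12, 5 belonged to Bcl2, 2 each to Bcl2l11, Bid and Bcl2a1b, and 1 to Mcl1. Over all regions 8.96% had a positive and 5.03% a negative call.

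**Figure D5:**
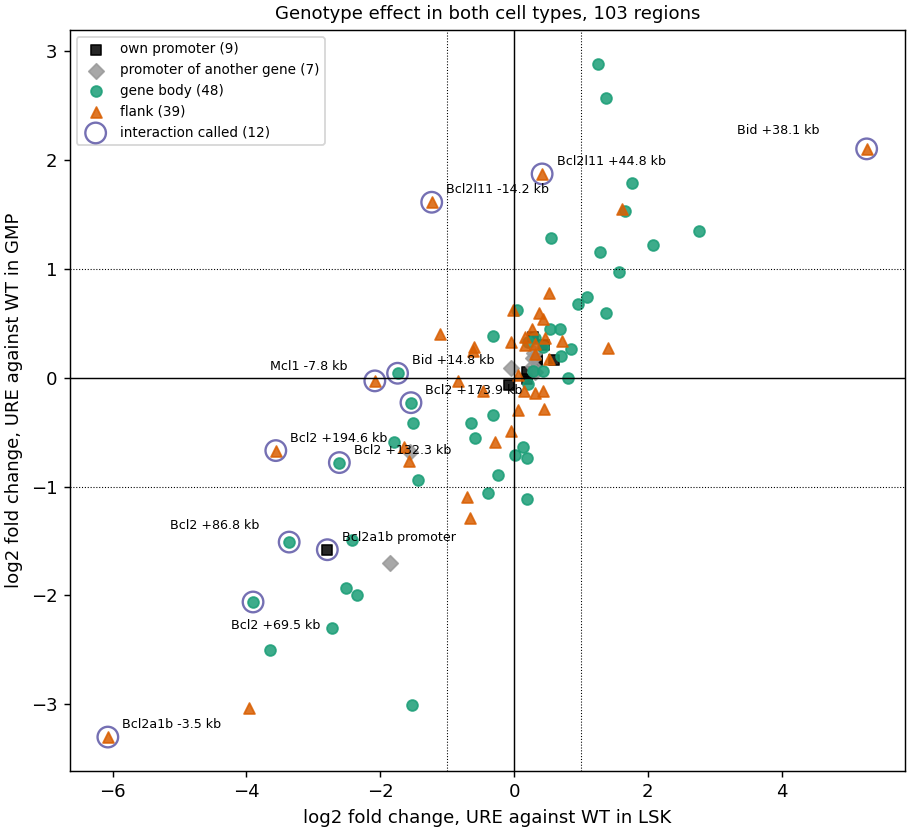
Log2 fold change of URE against WT in GMP (y axis) against that in LSK (x axis) for the 103 regions, with symbols by class, circles round the 12 regions called in the test of the difference and dotted lines at a 2-fold change. Most circled regions lie at the left, with a loss in LSK and a smaller or no loss in GMP.

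From LSK to GMP the regions of the family opened more often than they closed, as did regions in general. In WT, 27 were higher in GMP and 9 lower, a share called of 35.0% against 37.8% of all regions, and in URE 38 were higher and 15 lower, 51.5% against 49.1%. Over all regions 21.0% were called higher and 16.8% lower in WT, and 27.6% and 21.6% in URE. Bcl2 held 16 of the 27 regions called higher in WT-GMP and 18 of the 38 in URE. The 69 regions of the other genes had 11 higher and 6 lower in WT (24.6% called), and 20 higher and 9 lower in URE (42.0%). Of the 9 own promoter regions, 0 were called in WT by edgeR and by DESeq2, where 4 had an unadjusted and an adjusted p under 0.05, and 1 in URE, that of Bcl2a1b (1.34 ± 0.25, adjusted p = 0.000163). These steps share libraries with the genotype comparisons.

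Summed over its regions away from promoters, the 4 protective genes had lower means in URE, and Bcl2l11 and Bax had higher means. For Bcl2l1 and Bcl2a1b the lower means rested largely on a single region each, given below. The sum for Mcl1 (10 regions, 6294 bp) was 133 ± 5.03 CPM in WT-LSK and 90.4 ± 8.73 in URE-LSK, without overlap, and 155 ± 21.4 and 136 ± 15.3 in GMP, with overlap. For Bcl2 (32 regions, 10651 bp) it was 93.2 ± 5.56 and 82.7 ± 1.77 CPM in LSK and 157 ± 14.7 and 123 ± 9.83 in GMP, without overlap in either. Bcl2l1 (13 regions) went from 73.6 ± 4.64 to 59.5 ± 2.38 CPM in LSK without overlap and from 83.4 ± 10.7 to 71.5 ± 4.79 in GMP with overlap, and Bcl2a1b (4 regions) from 16.2 ± 1.96 to 12.5 ± 0.919 and from 20.5 ± 1.88 to 14.5 ± 0.285, without overlap. Bcl2l11 (14 regions) was at 111 ± 4.97 and 151 ± 19.5 CPM in LSK and 122 ± 11.5 and 172 ± 3.88 in GMP, and Bax (6 regions) at 51.7 ± 0.577 and 68.2 ± 1.11 and at 44.7 ± 1.62 and 56.2 ± 2.97, all without overlap. None of these Bax regions lay in the Bax body. All were in the flanks, and all but the region at 5.8 kb lay inside Gys1, Dhdh or Gm45808. Bid (8 regions) overlapped in LSK (27.1 ± 0.474 and 27.6 ± 3.02 CPM) and was higher in URE-GMP (57.2 ± 1.11 against 43.8 ± 2.21). No test was run on these sums, in which strong regions weigh most, and they were computed after the values of single regions were seen. In LSK the Bcl2l11 region at 1.5 kb, next to the promoter, held 62.5 of 111 CPM in WT and 84.6 of 151 in URE. The Bcl2l1 region at 42.4 kb held 41.4 of 73.6 and 27.7 of 59.5, and the Bax region at 5.8 kb 28.3 of 51.7 and 39.3 of 68.2. The promoters of Bcl2, Bcl2l1 and Mcl1 had higher means in URE-LSK, unlike the sums of these genes, and that of Bcl2a1b a lower one. Library size or median-ratio scaling in place of TMM left the ratios of URE to WT on their side of 1. The exception was Bid in LSK (0.938 and 1.05, beside 1.02). Loess and GC content offsets, under which the balance of calls moved, were not applied to the sums. Over the settings tried, the Bcl2l11 region at 1.5 kb went down to 0.15 in LSK and 0.04 in GMP.

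The PU.1 motif was in the central 300 bases of 9 of the 103 regions, 8.74% against 8.70% of all regions, of which 5 were among the 24 called lower in LSK, 1 among the 16 called lower in GMP, 0 among the 11 called higher in LSK and 1 among the 12 called higher in GMP. The CEBP motif was in 16 (15.5% against 16.4%), the RUNX motif in 10 (9.71% against 14.4%), the GATA motif in 10 (9.71% against 12.9%) and the motif of other ETS factors in 1 (0.971% against 1.22%). These are shares of windows that hold the letters on either strand. Among regions not called, the PU.1 motif was in 4 of 68 in LSK and 7 of 75 in GMP. The split by call was not made over all regions, so it has no share to be read beside.

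Among 34 other genes of the pathway, 33 had regions, with 274 regions outside the windows above. There, 19 were higher and 59 lower in LSK (28.5% called) and 24 higher and 55 lower in GMP (28.8%), with medians of 0.15 and 0.12 beside 0.14 and 0.06 over all regions. The counts by role that follow are to be read beside the 13.6% higher and 23.9% lower of all regions in LSK and the 15.6% and 24.1% in GMP, and they include a few regions that also lie in a window above. The other protective genes (Bcl2l2, Bcl2l10 and Bcl2a1a, since Bcl2a1d had no region) had 2 higher and 4 lower of 15 in LSK. The promoter of Bcl2a1a, another A1 copy, changed by -3.09 ± 0.30 in LSK (adjusted p = 4.09e-07) against -1.02 in GMP (adjusted p = 0.00237). Of 62 regions of other pore formers and relatives, 5 were higher and 11 lower in LSK and 6 and 11 in GMP, with 5 of 15 Bak1 regions lower in each cell type. Of 64 regions of other BH3-only genes, 2 were higher and 13 lower in LSK and 4 and 11 in GMP, and 7 of the 17 Bmf regions were lower in each. Downstream of the pore (cytochrome c, Apaf1, caspases and their inhibitors among them) 8 of 66 regions were higher and 18 lower in LSK and 7 and 17 in GMP. In the death receptor arm it was 4 and 12 of 56 in LSK and 7 and 9 in GMP, and an intronic region of Cflar, which blocks caspase 8, had the smallest p of its list (-4.27 ± 0.29 in LSK, adjusted p = 1.33e-08, against -2.73 ± 0.24 in GMP, adjusted p = 2.08e-07). Cflar went both ways, with 1 region higher and 3 lower in LSK and 3 higher and 3 lower in GMP. A region downstream of it rose in GMP by 3.81 ± 0.46 (adjusted p = 4.58e-06). The mitochondrial pair Bnip3 and Bnip3l had 1 region higher and 2 lower of 10 in LSK and 0 higher and 1 lower in GMP, and Trp53 had 1 lower of 8 in LSK and 2 in GMP.

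Promoters with the most similar profile were sought by the Pearson correlation of log2 CPM over the 12 libraries among 14659 promoter regions of other protein-coding genes. For Bcl2a1b they were those of Clec4a2, a myeloid lectin receptor, and Akt2 (r = 0.988 each), which also fell in URE, Clec4a2 in LSK from 11.8 to 0.212 CPM and in GMP from 17.2 to 2.45. Among the other genes, the closest were Stim2 for Bcl2 (0.973), Med16 for Bcl2l1 (0.965), Mtor for Bcl2l11 (0.982), Rpl38 for Bax (0.987) and Mif for Bid (0.960). Many promoters were nearly as similar, since between 46 (Bid) and 806 (Bax) had r over 0.9. All points share libraries, depth and the promoter class, and r is given as a description.

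The edge of the windows was a choice of distance. The outermost Bcl2 region inside lay 19.9 kb from the gene and had values of 0.45 in LSK and -0.29 in GMP, and the nearest one outside, 22.0 kb from the gene, had 0.63 and -0.22. Beside Bid, a region 30.1 kb upstream of the gene and outside the window went in LSK from 1.32 to 11.4 CPM (3.12) and in GMP from 0.765 to 3.69 (2.32), while the outermost one inside on that side, at 8.0 kb, had 0.06 and -0.30.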

How the data were processed

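Sorted LSK and GMP cells of 3 WT and 3 URE mice per cell type were profiled by Omni-ATAC. The authors trimmed reads with cutadapt, aligned them to GRCm38 with Bowtie2, removed duplicates and non-primary chromosomes, called peaks per group with Genrich, merged them with bedtools and counted reads with featureCounts. The file the authors deposited holds raw counts per merged region for the 12 libraries. The sources used here do not give the unit counted (fragments or read ends). Region starts in the table were taken as counted from 0 and are printed counted from 1. Nothing says more of how the mice of a group were kept, so p-values measure the spread between these libraries.

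Counts were analysed with edgeR 4.0.16 (limma 3.58.1, R 4.3.3): TMM normalization, filterByExpr (0 regions removed), 1 quasi-likelihood model of 4 group means over all 121336 regions, and Benjamini-Hochberg adjustment over all of them. The step was tested on simulated data. A call needs an adjusted p under 0.05 and a fold change over 2. Regions were assigned with GENCODE M21 basic, promoters being within 500 bp of a start site. Named for each gene were its strongest promoter region, up to 4 other regions that were called without overlap of the genotypes (smallest p first), and the strongest region away from promoters. The members, the gene lists and the tests were chosen with earlier results of these data known. Motif matches and sequences come from the central 300 bases of each region.

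Alternatives were other scalings (library size, RLE size factors, loess offsets, GC content offsets, TMM on promoter regions), DESeq2 1.42.0, other filters and thresholds, fits of the compared groups alone, the replicate number as a block, and leaving out each library. Same-numbered WT-LSK and WT-GMP libraries deviated together (r = 0.181, 0.191 and 0.207 for deviations from the group means). For URE the values were 0.0616, 0.273 and 0.113, between the GMP groups 0.0997, 0.205 and 0.349, and between the LSK groups 0.102, 0.0625 and -0.0616. The labels do not say that a number marks a mouse. Totals of 23072701 to 62204826 counts set the precision, and an exact binomial interval is given where the libraries of a group had at most 3 counts each. The promoter most similar to that of Mcl1 is not reported here.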

Additional observations from a re-analysis of the deposited data

Results flagged for a closer look

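In 10 named regions the genotype effect differed between LSK and GMP by the interaction term of the edgeR model (effect in GMP minus effect in LSK, log2, adjusted p under 0.05 and over 2-fold). For Bcl2 the differences were 1.84 at 86.8 kb, 1.84 at 69.5 kb and 1.83 at 132.3 kb, each with a larger loss in LSK (-3.36, -3.90 and -2.61) than in GMP (-1.51, -2.06 and -0.78). For Mcl1 it was 2.05 at 7.8 kb upstream, where LSK had -2.08 and GMP -0.03, and for Bid 1.78 at 14.8 kb, where LSK had -1.74 and GMP 0.04. Bcl2a1b had 1.21 at its promoter and 2.77 at 3.5 kb upstream. For Bcl2l11 the value was 1.45 at 44.8 kb, where GMP gained 1.87 and LSK had 0.42, and 2.84 at 14.2 kb upstream, where LSK fell by 1.23 and GMP rose by 1.61. The Bid region at 38.1 kb had -3.17, with a larger gain in LSK (5.27) than in GMP (2.10, against WT libraries of 2 or 3 counts each). The calls at Bcl2 69.5 kb, Bid 38.1 kb and the Bcl2a1b promoter depended on single libraries, as given above, and the other 7 remained called when any 1 library was left out. Groups of 3 libraries are too small for a search for outlying samples. The composition of the sorts, whose marker sums differ between genotypes, was not tested for its part in these differences.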

How the results depend on the processing

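Of 1216 values of named regions under other settings (102 values, up to 13 settings), 1171 kept their direction and side of the threshold, 16 lost the call, 4 gained it and 25 changed sign. Among 1224 values with 1 library left out these numbers were 1191, 25, 2 and 6. Counts of called regions were 35 in LSK, 28 in GMP, 36 for GMP against LSK in WT, 53 for that step in URE and 12 for the interaction, and ranged over the libraries left out from 32 to 36, 27 to 29, 33 to 40, 51 to 53 and 10 to 15. With a mean of at least 2 CPM required, so that fewer regions were tested, 20 were called in LSK and 17 in GMP. Without the fold threshold the counts were 61 in LSK, 47 in GMP and 58 for the WT step, and with an adjusted p under 0.01 the interaction had 7.

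With the replicate number as a block, the counts were 35, 29, 36, 53 and 13, and the pairing changed no call of a named region. A replicate block within genotype, added after seeing the data, gave 36 and 53 for the steps and 15 for the interaction, and a Y chromosome covariate, also added then, gave 35, 29, 36, 53 and 12.

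Signs changed only at values that were not called. Under loess offsets these were the Bcl2 promoter in GMP (-0.08), the Bcl2l1 promoter in LSK (-0.09) and GMP (-0.19), the Mcl1 promoter in LSK (-0.01), the Bid promoter in LSK (-0.05) and Bid 14.8 kb in GMP (-0.02). Under GC content offsets, with and without the replicate block, they were the Bcl2 promoter in GMP (-0.03), the Bcl2l1 promoter in LSK (-0.03) and GMP (-0.13) and Mcl1 7.8 kb upstream in GMP (0.21), and without the block the Bax promoter in GMP (-0.0023). With library size scaling the Bcl2l1 promoter in GMP had -0.06 and Bid 14.8 kb in GMP -0.08. With TMM on promoter regions these had -0.08 and -0.10, and with a mean of at least 2 CPM -0.02 and -0.04. With RLE size factors and DESeq2, Mcl1 7.8 kb upstream in GMP had 0.02 in both, and the Bid promoter in GMP 0.05 and 0.06. With 1 library left out, the Mcl1 value ranged from -0.22 to 0.21 and Bid 14.8 kb in GMP from -0.07 to 0.10, and the Bid promoter in GMP reached 0.0022 to 0.07. The cause of these changes was not tested. Depth limits regions near 3 counts per library, such as Bcl2l1 46.9 kb and Bcl2l11 22.7 kb in LSK, where loess offsets gave calls (2.85 and 2.41) that the other scalings did not, except GC content offsets with the block for Bcl2l1 (1.64).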
